A study of Mus musculus with 6 samples.

Results

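Nuclei of hippocampal microglia from tau transgenic mice carrying human APOE4 were compared with those from tau transgenic mice lacking Apoe, in animals that all also carried the TREM2- genotype. The tested library was P301S/E4/TREM2-, which combines the tau transgene P301S, human APOE4 and the TREM2- genotype. Its comparator was P301S/EKO/TREM2-, which has the same tau transgene and TREM2- genotype but no Apoe. Nuclei were kept when they had 200 or more detected genes, at most 5% of unique molecular identifiers (UMIs) from mitochondrial genes, and fewer than 3 UMIs summed over F13a1, Mrc1, Cd163, Cd209f and Cbr2, which are expressed by macrophages of the brain borders. This left 6756 nuclei of P301S/E4/TREM2- and 4982 of P301S/EKO/TREM2-, or 11738 of the 33335 nuclei deposited for the series. The series held 6 libraries of PU.1-sorted nuclei, 1 per genotype, each a pool of the hippocampi of 3 mice aged 9.5 months. The other libraries were P301S/E4/TREM2+, P301S/EKO/TREM2+, E4/TREM2- and E4/TREM2+, where E4 without P301S marks APOE4 mice with no tau transgene. The labels do not say how the Trem2 or Apoe alleles were made, which promoter drives tau, or whether mice of different pools were littermates.

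Apolipoprotein E is a lipid carrier that astrocytes and activated microglia secrete, and the APOE4 form is the main common genetic risk factor for late Alzheimer disease. TREM2 is a lipid-sensing receptor of microglia that signals through the adaptor TYROBP. Loss of TREM2 is known to hold microglia back from the full disease-associated state, in which homeostatic genes such as P2ry12 are reduced and genes of lipid handling, lysosomes and matrix are raised. A difference between APOE4 and no Apoe that is present in TREM2- mice is one that does not need TREM2, and that is the question the comparison addresses.

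The libraries differed in depth, and the comparison was made at equal depth per nucleus. The shallowest nucleus deposited had 500 UMIs in P301S/E4/TREM2- but 224 UMIs in P301S/EKO/TREM2-, and the median nucleus kept had 911 UMIs in P301S/E4/TREM2- but 568 UMIs in P301S/EKO/TREM2-. Every nucleus was therefore thinned to 500 UMIs, which kept all 6756 nuclei of P301S/E4/TREM2- (3378000 UMIs) and 3169 of P301S/EKO/TREM2- (1584500 UMIs), and left out 1813 shallower nuclei of the second library. Levels below are UMI counts scaled to an equal total per library (CPM). Where a pair of libraries has been named, "with APOE4" is its P301S/E4 library and "without Apoe" its P301S/EKO library, and values that name no pair are those of the TREM2- pair. Fold changes are log2 ratios of CPM with an exact 95% interval that covers counting error only. There was 1 pooled library a side, so no test of this pair alone is possible, and genes are described by size. The test used was an additive edgeR quasi-likelihood fit over all 6 libraries. It estimates a single P301S/E4 minus P301S/EKO difference, averaged over TREM2- and TREM2+. A gene can pass it without a clear difference in each pair. "Rose" and "fell" refer to genes that passed that fit at an adjusted p (Benjamini-Hochberg) of 0.05. Fitted changes are on the log2 scale with their SE. Each genotype had 1 library, so the fit's 2 residual degrees of freedom mix departures from the additive model with the spread between pools. The spread between pools of the same genotype, or between mice, was not measured. Over the 6 libraries 3169 to 6756 nuclei entered, the 4 Y-linked genes summed gave 584 to 846 CPM, and Xist had 0 to 3 UMIs, so none of the pools held an appreciable share of female nuclei. The libraries of the pair shared 13 cell barcodes.

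The microglia markers were high on both sides, with 23 of 23 detected and a summed level of 28784 CPM in P301S/E4/TREM2-, with 32261 CPM in P301S/EKO/TREM2-. Markers of other cell types were also counted. The 10 border-associated macrophage markers summed to 685.61 CPM in P301S/E4/TREM2-, with 301.04 CPM in P301S/EKO/TREM2-, the 12 monocyte markers to 129 CPM with APOE4 and 34.7 CPM without Apoe, the 17 neuronal markers to 157 CPM with APOE4 and 353 CPM without Apoe, and the 11 astrocyte markers to 440 CPM with APOE4 and 649 CPM without Apoe. Thus macrophage and monocyte transcripts were higher and neuronal and astrocyte transcripts lower in P301S/E4/TREM2-. The limit on the macrophage genes had removed 248 nuclei (3.54%) of P301S/E4/TREM2- and 68 (1.35%) of P301S/EKO/TREM2-. Values without the nuclei concerned are given beside the genes they touch.

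The targeted genes followed their labels for Apoe and in part for Trem2. Apoe (chromosome 7, 19696109 to 19699188, GRCm38) was counted at 786 CPM in P301S/E4/TREM2-, with 8.84 CPM in P301S/EKO/TREM2-, and at 1170 CPM in P301S/E4/TREM2+, with 14.2 CPM in P301S/EKO/TREM2+. The log2 ratio was 6.47 (5.73 to 7.35) without TREM2 and 6.37 (5.80 to 7.00) with it, and Apoe rose by 6.38 ± 0.26 (SE) in the fit, edgeR adjusted p = 1.58e-08. At 500 UMIs, 30.1% of nuclei of P301S/E4/TREM2- and 0.442% of nuclei of P301S/EKO/TREM2- held an Apoe UMI. The E4 libraries without tau had 124 CPM in TREM2- and 106 CPM in TREM2+, well below both P301S/E4 libraries. Reads were mapped to the mouse genome, so a human APOE4 transcript was counted only as far as it matched mouse Apoe, and its level cannot be set against that of another gene. Trem2 transcripts were still counted in TREM2- libraries, at 587 CPM in P301S/E4/TREM2-, with 488 CPM in P301S/EKO/TREM2-. The TREM2+ counterparts had 1170 CPM with APOE4 and 1050 CPM without Apoe. The UMIs do not say whether those transcripts encode a receptor. Trem2 did not pass the test between P301S/E4 and P301S/EKO (log2 0.21 ± 0.12, edgeR adjusted p = 0.469).

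Among 7047 genes with at least 100 UMIs over the pair, 227 (3.22%) were 2-fold or more higher in P301S/E4/TREM2- and 79 (1.12%) were 2-fold or more lower. The median log2 ratio of all genes was 0.08, with 90% of genes between the 5th percentile of -0.58 and the 95th of 0.83, so most genes lay within 2-fold. Centred on that median, the split was 166 higher and 97 lower. Without thinning it was 376 higher and 236 lower. In the TREM2+ pair, which shares no library with the TREM2- pair, 96 of 6889 genes (1.39%) were 2-fold or more higher in P301S/E4/TREM2+ and 43 (0.624%) were lower, with a median of -0.03. Of all genes compared, 59.0% were above 0 in the TREM2- pair and 45.6% in the TREM2+ pair. Counts of list members above or below 0 are to be read beside those shares.

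Of 6662 genes compared in both pairs, 53 (0.796%) were 2-fold or more higher in the P301S/E4 library of both, Apoe among them, and 7 (0.105%) were lower in both. Without nuclei that held a Gpnmb UMI 27 were higher in both. The 53 were 30.5% of the 174 genes higher in TREM2- and 76.8% of the 69 higher in TREM2+. Thus, among genes compared in both pairs, most of those 2-fold or more higher in the TREM2+ pair were also 2-fold or more higher in the TREM2- pair. Of the 174, 153 had the same sign in TREM2+. For lower genes the shared part was smaller, with 7 making up 9.72% of 72 in TREM2- and 17.1% of 41 in TREM2+. Across the 6662 genes the log2 ratios of the pairs correlated with Pearson r 0.475 and Spearman rho 0.341, and across the 686 genes with at least 1000 UMIs in each pair with 0.737 and 0.539. These are descriptions across genes, which are not independent replicates. In the additive fit over 10830 genes, 151 rose (1.39%) and 99 fell (0.914%). Among the 227 genes higher in the TREM2- pair, 225 could be tested and 99 rose, and of the 79 lower genes 24 fell. Those counts are not independent of the pair, since the pair is part of the fit. DESeq2 called 58 of the 10830 genes higher and 40 lower. Leaving out 1 library at a time gave 56 to 511 genes that rose and 32 to 588 that fell, the lowest without P301S/EKO/TREM2- and the highest without P301S/E4/TREM2+. With P301S/EKO/TREM2+, E4/TREM2- or E4/TREM2+ left out it was 91 and 46, 94 and 39, or 93 and 35.

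**Figure D1:**
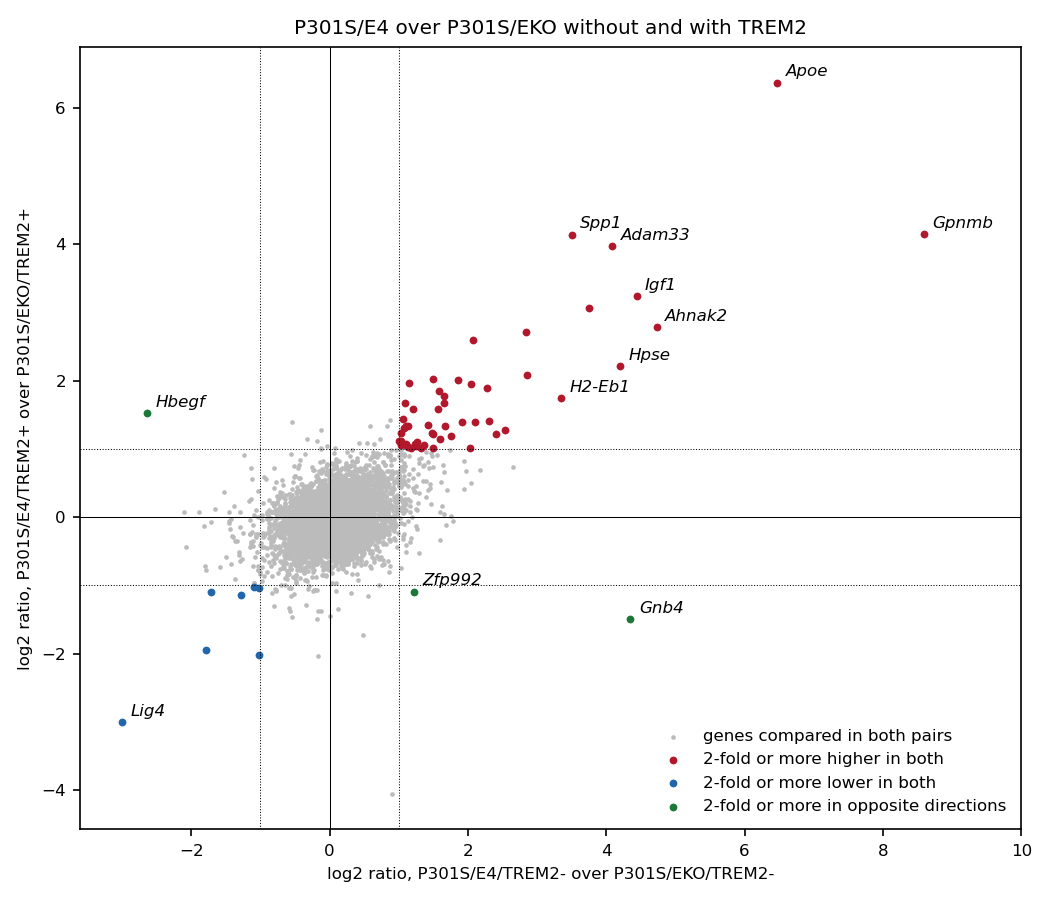
Each point is 1 of 6662 genes compared in both pairs. The x axis is the log2 ratio of P301S/E4/TREM2- over P301S/EKO/TREM2- and the y axis that of P301S/E4/TREM2+ over P301S/EKO/TREM2+, with dotted lines at 2-fold. The 53 red genes are 2-fold or more higher in both, the 7 blue ones lower in both, and the 3 green ones, Gnb4, Zfp992 and Hbegf, past 2-fold in opposite directions.

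The largest log2 ratio of the TREM2- pair, above that of Apoe, was in Gpnmb, a transmembrane glycoprotein of lysosomes that marks lipid-laden and phagocytic macrophages. Gpnmb (chromosome 6, 49036546 to 49070929, plus strand) was counted at 243 CPM in P301S/E4/TREM2-, with 0.631 CPM in P301S/EKO/TREM2-, that is 822 UMIs with APOE4 against 1 without Apoe. The log2 ratio was 8.59 with an interval of 6.11 to 13.90, wide because 1 UMI sets the denominator. That interval overlaps the one of Apoe, and at 1000 UMIs per nucleus the order was reversed, with 5.38 for Gpnmb and 7.04 for Apoe. With TREM2 the levels were 191 CPM in P301S/E4/TREM2+, with 10.8 CPM in P301S/EKO/TREM2+ (log2 4.15), and without tau they were 0.474 CPM in E4/TREM2- and 0 UMIs in E4/TREM2+. A Gpnmb UMI was found in 456 nuclei (6.75%, 6.16 to 7.37) of P301S/E4/TREM2- and in 1 nucleus (0.0316%, 0.000799 to 0.176) of P301S/EKO/TREM2-. Neuron nuclei were defined by 20 or more UMIs of neuronal markers. After thinning, 1 of 16 in P301S/E4/TREM2- and 0 of 17 in P301S/EKO/TREM2- held a Gpnmb UMI. Before thinning, the median depths of these neuron nuclei were 3926.5 UMIs with APOE4 and 2619 UMIs without Apoe. Gpnmb rose by 5.17 ± 0.39 (edgeR adjusted p = 1.44e-05). Transcripts were thus abundant in P301S/E4 tau libraries of either TREM2 genotype and close to 0 in P301S/EKO/TREM2- and the libraries without tau.

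Secreted factors and enzymes of the cell surface and matrix were among the 53 genes higher in both pairs. Igf1, a growth factor that activated microglia secrete, was at 54.8 CPM in P301S/E4/TREM2-, with 2.52 CPM in P301S/EKO/TREM2-, while the TREM2+ pair had 117 CPM with APOE4 and 12.5 CPM without Apoe. Its log2 ratio was 4.44 (3.06 to 6.33) without TREM2 and 3.24 with it, and it rose by 3.51 ± 0.34 (edgeR adjusted p = 0.000135). Spp1, which encodes the matrix protein osteopontin, was at 85.6 CPM in P301S/E4/TREM2-, with 7.57 CPM in P301S/EKO/TREM2-, while the TREM2+ pair had 420 CPM with APOE4 and 23.8 CPM without Apoe. The P301S/E4 library was higher on both sides although the Spp1 level was lower in both TREM2- tau libraries than in their TREM2+ counterparts. Spp1 rose by 3.98 ± 0.22 (edgeR adjusted p = 5.4e-07). Adam33, a membrane metalloprotease, had 108 CPM in P301S/E4/TREM2-, with 6.31 CPM in P301S/EKO/TREM2-, while the TREM2+ pair had 133 CPM with APOE4 and 8.50 CPM without Apoe, with log2 ratios of 4.09 and 3.97, and rose by 4.00 ± 0.25 (edgeR adjusted p = 2.11e-06). Hpse, the endoglycosidase heparanase that cleaves heparan sulphate, was at 46.5 CPM in P301S/E4/TREM2-, with 2.52 CPM in P301S/EKO/TREM2- (log2 4.20), and both libraries without tau had 0 CPM. It rose by 2.96 ± 0.39 (edgeR adjusted p = 0.00194).

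Members of the Ms4a family, tetraspan membrane proteins of myeloid cells, were also among the genes highest in both pairs. Ms4a7 had 127 CPM in P301S/E4/TREM2-, with 9.47 CPM in P301S/EKO/TREM2- (log2 3.75, 3.01 to 4.60), while the TREM2+ pair had 143 CPM with APOE4 and 17.0 CPM without Apoe, and Ms4a14 had 40.6 CPM with APOE4 and 5.68 CPM without Apoe (log2 2.84). Both rose. Ahnak2, a large scaffold protein, had 66.9 CPM in P301S/E4/TREM2-, with 2.52 CPM in P301S/EKO/TREM2- (log2 4.73), and rose by 3.40 ± 0.38 (edgeR adjusted p = 0.000451). Ikbke, a kinase of innate immune signalling, and Sash1, a signalling scaffold, had log2 ratios of 2.85 and 2.27 without TREM2 and 2.09 and 1.89 with it, and both rose. All 12 genes highest in both pairs, chosen by the smaller of their 2 log2 ratios, rose in the fit, but they were chosen on libraries that the fit uses, so that count is no support.

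Ms4a7 is itself a border-associated macrophage marker, and Igf1, Adam33 and Ms4a7 were among the genes most affected by the choice of nuclei. With the nuclei that exceeded the macrophage limit put back, the log2 ratios were 2.57 for Igf1, 2.33 for Adam33 and 2.09 for Ms4a7. With every nucleus that held any UMI of the 5 macrophage genes taken out instead, they were 4.26, 4.94 and 3.93, and Gpnmb, Spp1 and Ahnak2 were at 7.57, 3.99 and 4.29. Nuclei in which none of the 5 genes was detected can still hold their transcripts at this depth.

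**Figure D2:**
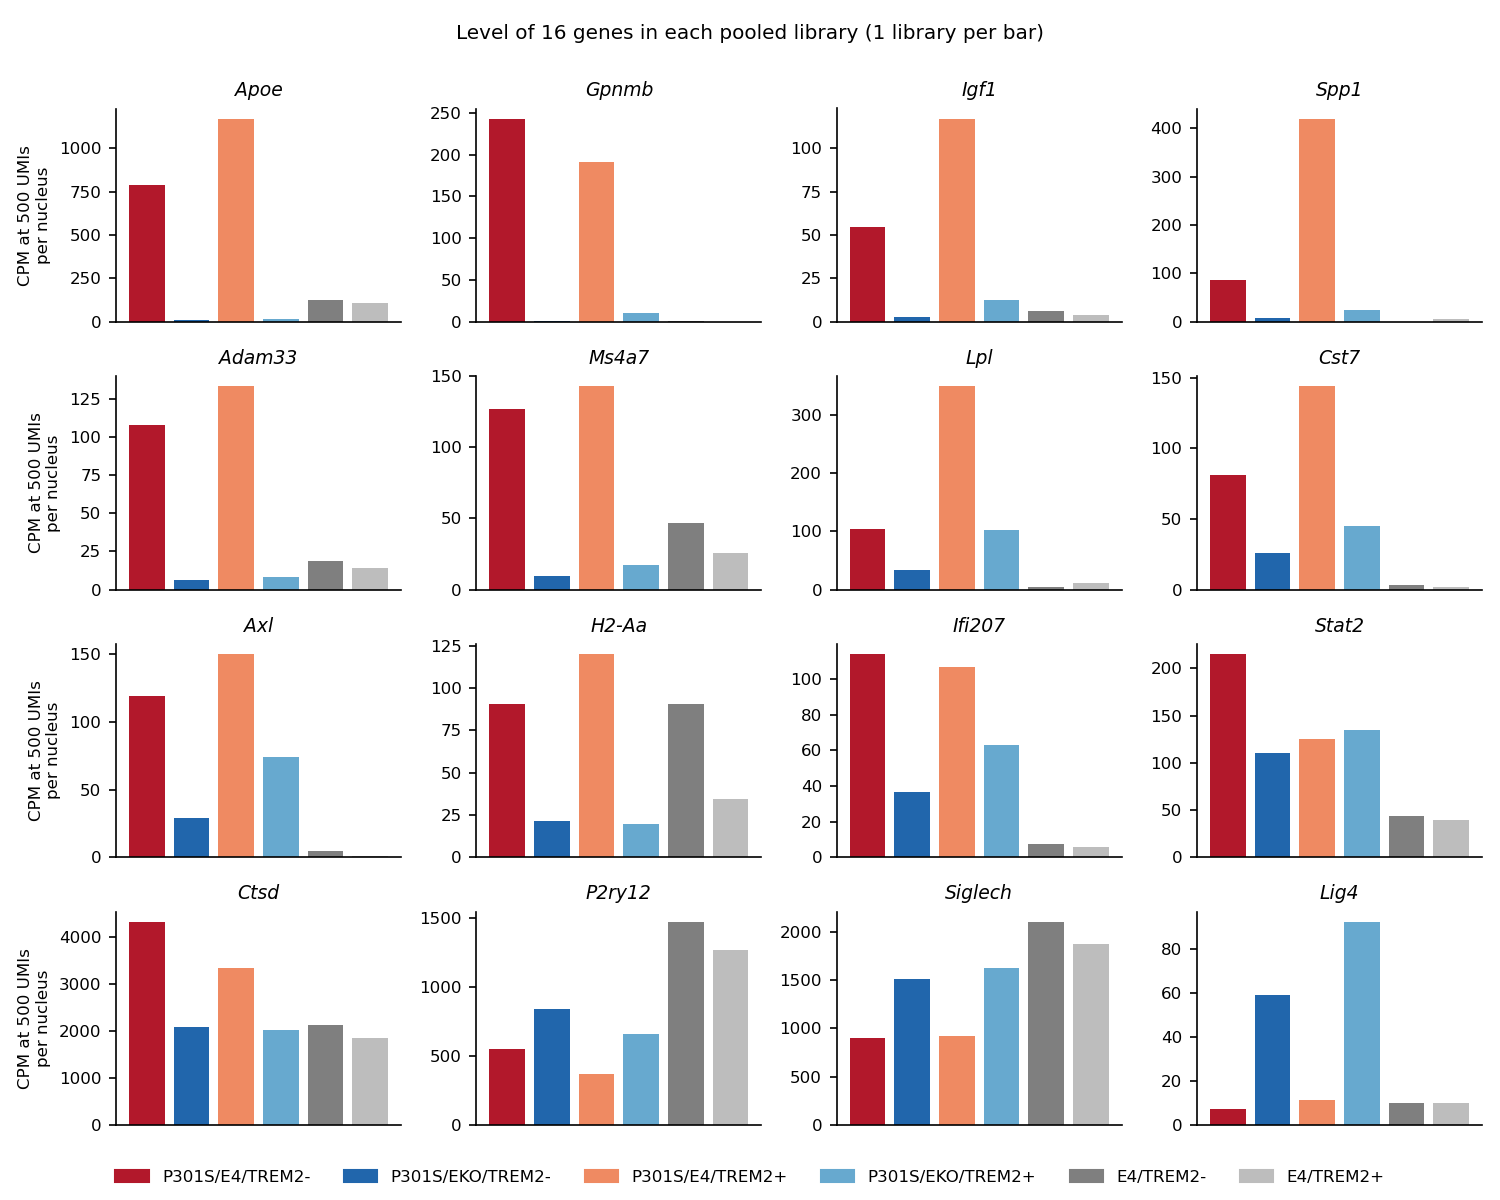
Bars give the level of 16 genes in CPM, at 500 UMIs per nucleus, in each of the 6 pooled libraries (1 library per bar, no error bar). Apoe, Gpnmb, Igf1, Spp1, Adam33, Ms4a7 and H2-Aa are high in both P301S/E4 tau libraries and low in both P301S/EKO ones, P2ry12 and Siglech run the other way, Stat2 is raised in P301S/E4/TREM2- relative to the other tau libraries, and Lig4 is high in both P301S/EKO libraries only.

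Nuclei with a Gpnmb UMI held more of several of these transcripts. In P301S/E4/TREM2-, the 456 nuclei with a Gpnmb UMI had 781 CPM of Adam33 and the 6300 without had 59.0 CPM. Ahnak2 and Sash1 were each at 430 CPM with a Gpnmb UMI and 40.6 CPM without, Ms4a7 at 627 CPM with and 91.1 CPM without, Spp1 at 320 CPM with and 68.6 CPM without, Igf1 at 167 CPM with and 46.7 CPM without, and Fabp5, a fatty acid carrier, at 325 CPM with and 45.1 CPM without. P2ry12 was lower in nuclei with Gpnmb, at 259 CPM with and 574 CPM without, while the protease Ctsd (4330 CPM with and 4300 CPM without) and the MHC gene H2-Aa (87.7 CPM with and 90.8 CPM without) were nearly level. Nuclei with a UMI of a gene at equal depth differ in more than that gene, and these values are a description of 1 library. With all nuclei that held a Gpnmb UMI before thinning left out, which kept 6021 nuclei of P301S/E4/TREM2- and 3167 of P301S/EKO/TREM2-, the log2 ratio was 2.52 for Adam33, 2.76 for Ahnak2, 1.70 for Ms4a14, 1.13 for Sash1, 3.24 for Ms4a7, 3.69 for Igf1 and 3.68 for Spp1. The nuclei kept can include some whose Gpnmb transcripts were not sampled.

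The authors' deposited markers of the state they name TERM were also higher with APOE4, though the list was chosen on these libraries and is no independent evidence. Of 49 genes, 31 were 2-fold or more higher in P301S/E4/TREM2-, none was 2-fold lower, and the median log2 ratio was 1.09, against 0.74 in the TREM2+ pair. In the fit 35 rose and 0 fell, where 1.39% of all genes rose. Without nuclei with a Gpnmb UMI the median was 0.93.

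Disease-associated microglia (DAM) genes were higher with APOE4 despite the TREM2- genotype. The stage 2 list holds genes known to need TREM2 for their full induction in amyloid models. Of its 21 genes compared, 20 were above 0 and 9 were 2-fold or more higher in P301S/E4/TREM2-, with a median of 0.74 (0.96 in the TREM2+ pair). In the fit 13 of 22 rose and none fell, where 1.39% of all genes rose and 0.914% fell. DESeq2 called 9 of the 22 higher. Lpl, lipoprotein lipase, had 105 CPM in P301S/E4/TREM2-, with 33.4 CPM in P301S/EKO/TREM2-, while the TREM2+ pair had 350 CPM with APOE4 and 103 CPM without Apoe. Its log2 ratios of 1.66 (1.24 to 2.10) and 1.77 were close, and it rose by 1.73 ± 0.16 (edgeR adjusted p = 6.76e-05). Cst7, an inhibitor of lysosomal cysteine proteases, had 81.1 CPM in P301S/E4/TREM2-, with 25.9 CPM in P301S/EKO/TREM2- (log2 1.65), and its ratio was 1.68 in the TREM2+ pair. Axl, a receptor for apoptotic cells, had 119 CPM in P301S/E4/TREM2-, with 29.0 CPM in P301S/EKO/TREM2- (log2 2.03), while its ratio was 1.01 in the TREM2+ pair. It lies on the chromosome of Apoe, within 10 Mb of it. Csf1, the ligand of the microglial survival receptor, had 135 CPM with APOE4 and 48.0 CPM without Apoe (log2 1.49), and the inhibitory receptor Lilrb4a 115 CPM with APOE4 and 37.9 CPM without Apoe (log2 1.60). Cst7, Axl, Csf1 and Lilrb4a all rose. Itgax, the integrin CD11c, was different in the TREM2- pair. It had 20.7 CPM in P301S/E4/TREM2-, with 15.1 CPM in P301S/EKO/TREM2- (log2 0.45, -0.23 to 1.19), so the counting interval of the TREM2- pair includes no difference, and at 300 UMIs per nucleus the ratio was -0.23. In the TREM2+ pair it had 116 CPM with APOE4 and 45.9 CPM without Apoe (log2 1.33), and in the fit it rose by 1.04 ± 0.25 (edgeR adjusted p = 0.0442).

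Levels in P301S/EKO/TREM2- were not simply those of mice without tau. Of the 21 stage 2 genes, 17 lay in P301S/EKO/TREM2- between P301S/E4/TREM2- and E4/TREM2-, and 7 were at least 2-fold above E4/TREM2-. Lpl was at 4.27 CPM, Cst7 at 3.32 CPM and Axl at 4.74 CPM in E4/TREM2-, all below the P301S/EKO/TREM2- values above. Of the 52 genes other than Apoe that were higher in both pairs, 38 lay between and 14 were lower in P301S/EKO/TREM2- than in E4/TREM2-. Among those 14 were Igf1 (2.52 CPM in P301S/EKO/TREM2- and 6.17 CPM in E4/TREM2-), Adam33 (6.31 CPM in P301S/EKO/TREM2- and 18.5 CPM in E4/TREM2-), Ms4a7 (9.47 CPM in P301S/EKO/TREM2- and 46.5 CPM in E4/TREM2-) and the MHC class II genes. These are values of single pools that differ in tau as well as in Apoe.

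The stage 1 DAM list, of genes known in amyloid models to rise before TREM2 is needed, had a median of 0.68 over 6 genes (0.49 with TREM2). Lyz2, lysozyme, had 629 CPM in P301S/E4/TREM2-, with 186 CPM in P301S/EKO/TREM2- (log2 1.76). Ctsd had 4310 CPM with APOE4 and 2090 CPM without Apoe (log2 1.04) and Ctsb, another lysosomal protease, 2120 CPM with APOE4 and 1080 CPM without Apoe (log2 0.97). These 3 rose. Fth1, ferritin heavy chain, was the only member lower. It had 379 CPM in P301S/E4/TREM2-, with 502 CPM in P301S/EKO/TREM2-. Of 42 lysosomal genes compared, 37 were above 0 with a median of 0.41 (0.16 with TREM2). Of 43 tested in the fit, 7 rose and none fell, where 1.39% of all genes rose, and DESeq2 called 3 higher. Cd63, a tetraspanin of late endosomes, had 513 CPM in P301S/E4/TREM2-, with 227 CPM in P301S/EKO/TREM2- (log2 1.18) and rose by 1.09 ± 0.13 (edgeR adjusted p = 0.000588).

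Genes of lipid export and storage followed. Of 14 compared, 12 were above 0 and 5 were 2-fold or more higher in P301S/E4/TREM2-, with a median of 0.68 (0.46 with TREM2). Abca1, the transporter that loads cholesterol onto apolipoproteins, had 1010 CPM in P301S/E4/TREM2-, with 477 CPM in P301S/EKO/TREM2- (log2 1.09), while the TREM2+ pair had 798 CPM with APOE4 and 571 CPM without Apoe. Fabp5 had 63.9 CPM with APOE4 and 21.5 CPM without Apoe (log2 1.58), Plin2, the coat protein of lipid droplets, 57.1 CPM with APOE4 and 25.9 CPM without Apoe (log2 1.14), and the lysosomal lipase Lipa 89.4 CPM with APOE4 and 42.3 CPM without Apoe (log2 1.08). Of 19 tested in the fit, Abca1, Abcg1, Plin2, Soat1, Lipa and Fabp5 rose and no member fell, where 1.39% of all genes rose. DESeq2 called 2 higher. The 4 cholesterol synthesis genes compared had a median of -0.23, of 20 on that list, and none of the 15 tested by edgeR passed, with 1 below 0 at an unadjusted p of 0.05 and 0 called by DESeq2. The 9 lipoprotein receptor genes had a median of 0.33 (-0.15 with TREM2), and none passed in edgeR. At an unadjusted p of 0.05, 2 were above and 1 below 0, and 0 were called by DESeq2. Of all 10830 genes tested by edgeR, 1666 reached that unadjusted p in either direction. Lrp1, the main cellular receptor of ApoE on the list, had 1150 CPM in P301S/E4/TREM2-, with 911 CPM in P301S/EKO/TREM2-, but 803 CPM with APOE4 and 994 CPM without Apoe in the TREM2+ pair.

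Homeostatic genes were modestly lower with APOE4. Of 25 compared, 21 were below 0 in the TREM2- pair and none reached 2-fold, with a median of -0.32 (-0.37 with TREM2). P2ry12, the ADP receptor that guides microglial processes, had 552 CPM in P301S/E4/TREM2-, with 839 CPM in P301S/EKO/TREM2- (log2 -0.60, -0.71 to -0.50), and fell by 0.72 ± 0.12 on the log2 scale (edgeR adjusted p = 0.00842). Siglech, a sialic acid receptor, had 896 CPM with APOE4 and 1510 CPM without Apoe (log2 -0.75), Selplg, a selectin ligand, 399 CPM with APOE4 and 712 CPM without Apoe (log2 -0.83), and Gpr34, a lysophospholipid receptor, 446 CPM with APOE4 and 736 CPM without Apoe (log2 -0.72). These 4 and the transcription factor Hlf fell, of 30 list members tested in the fit, where 0.914% of all genes fell. Of the 25, 4 were above 0 in the TREM2- pair, among them Ltc4s and Ecscr. Ltc4s had 635 CPM with APOE4 and 394 CPM without Apoe (log2 0.69, and 0.12 in the TREM2+ pair). Ecscr had 177 CPM with APOE4 and 120 CPM without Apoe (log2 0.56, but -1.15 in the TREM2+ pair). Neither passed (edgeR adjusted p = 0.326 for Ltc4s and 0.824 for Ecscr). Tmem119 had 269 CPM in P301S/E4/TREM2-, with 305 CPM in P301S/EKO/TREM2- (log2 -0.18), while the TREM2+ pair had 153 CPM with APOE4 and 318 CPM without Apoe (log2 -1.06), and did not pass the test (edgeR adjusted p = 0.079). In E4/TREM2- P2ry12 was at 1470 CPM, Siglech at 2100 CPM and Selplg at 1200 CPM, above both TREM2- tau libraries. For 20 of the 25 genes the level of P301S/EKO/TREM2- lay between those of P301S/E4/TREM2- and E4/TREM2-.

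**Figure D3:**
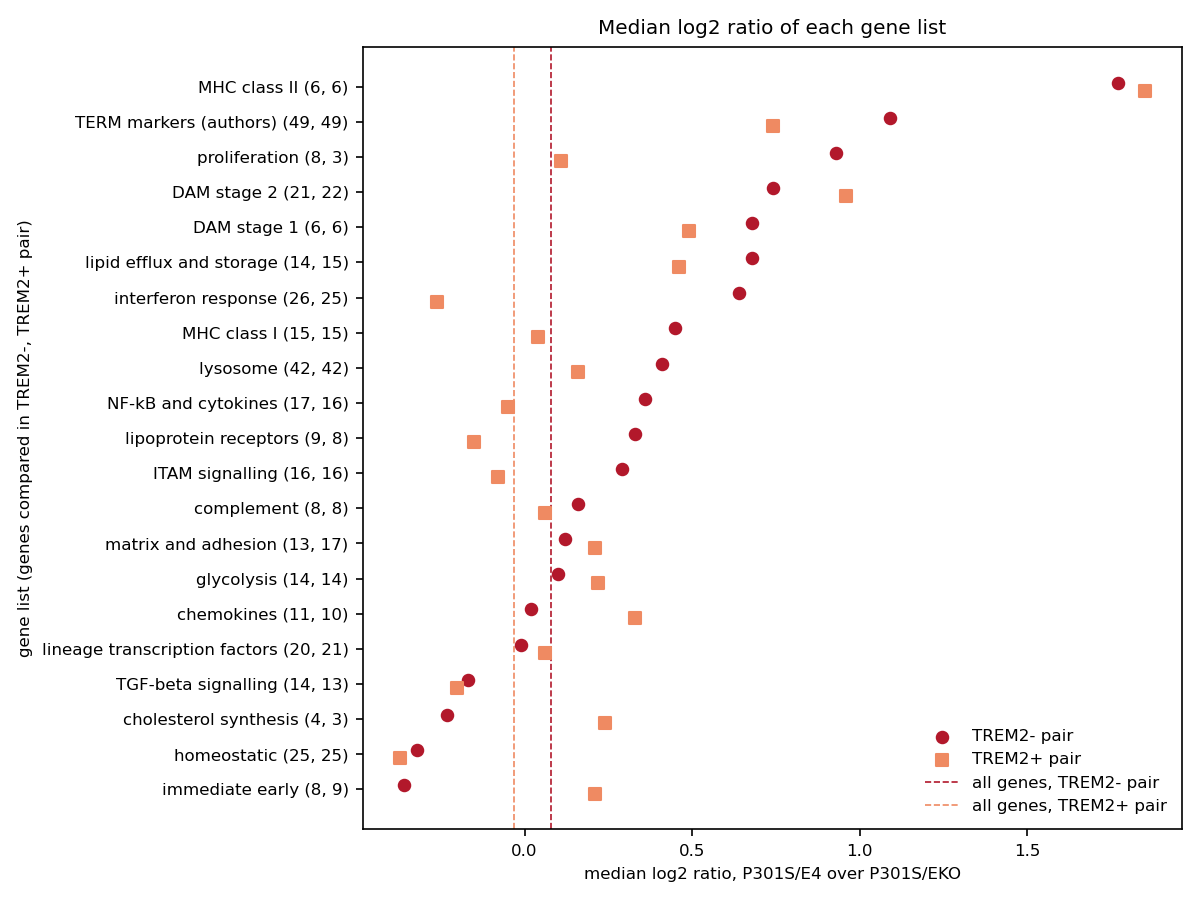
Median log2 ratio of P301S/E4 over P301S/EKO for 21 gene lists in the TREM2- pair (circles) and the TREM2+ pair (squares), with the number of genes compared in each pair in brackets and the medians of all genes as dashed lines. MHC class II, TERM and DAM lists lie to the right in both pairs and homeostatic genes to the left, whereas the interferon response median is 0.64 in the TREM2- pair and -0.26 in the TREM2+ pair.

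Interferon response genes were higher with APOE4 in the TREM2- pair, and most were lower with APOE4 in the TREM2+ pair. Of 26 compared, 24 were above 0 in the TREM2- pair with a median of 0.64, while in the TREM2+ pair 6 of 25 were above 0 with a median of -0.26. Among all genes compared, 59.0% were above 0 in the TREM2- pair and 45.6% in the TREM2+ pair. A difference between the pairs cannot be tested with 1 library per genotype. In the additive fit 1 of 31 passed, where 1.39% of all genes rose. That was Ifi207, a DNA-sensing PYHIN family gene. It had 114 CPM in P301S/E4/TREM2-, with 36.6 CPM in P301S/EKO/TREM2- (log2 1.64, 1.24 to 2.06), while the TREM2+ pair had 107 CPM with APOE4 and 62.9 CPM without Apoe. It rose by 1.16 ± 0.21 (edgeR adjusted p = 0.0101). Stat2, a transcription factor of the type I interferon response, had 215 CPM in P301S/E4/TREM2-, with 110 CPM in P301S/EKO/TREM2- (log2 0.96), while the TREM2+ pair had 125 CPM with APOE4 and 135 CPM without Apoe. Oas1a, a sensor of viral RNA, had 35.8 CPM with APOE4 and 15.1 CPM without Apoe (log2 1.24), the nucleic acid sensor Zbp1 55.7 CPM with APOE4 and 23.4 CPM without Apoe (log2 1.25), and the ubiquitin ligase Trim30a 347 CPM with APOE4 and 168 CPM without Apoe (log2 1.05). P301S/E4/TREM2- was the highest of the 6 libraries for Stat2, Zbp1 and Trim30a, and P301S/EKO/TREM2- was the lowest of the 4 tau libraries for all 5 genes named here. Of the 26 genes, 19 were still at least 2-fold higher in P301S/EKO/TREM2- than in E4/TREM2-. All alternative choices of nuclei and depth left the TREM2- median between 0.52 and 0.73.

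Promoter sequence of these genes is shown because the interferon-stimulated response element (ISRE) is the known control element of the group. Sequences are from RefSeq (GRCm38.p6), 250 bases before to 50 after the annotated start, and capitals mark the ISRE core GAAANNGAAA on either strand or, for Ctsd, the E-box CACGTG. In Oas1a a pair of ISRE cores overlap. The windows lie at chr1:173741760-173742059, minus strand for Ifi207, chr5:120907476-120907775, minus strand for Oas1a, chr10:128270248-128270547, plus strand for Stat2, chr7:142387778-142388077, minus strand for Ctsd and chr6:49036268-49036567, plus strand for Gpnmb, which is shown as the gene with the largest ratio and holds neither motif.
Ifi207: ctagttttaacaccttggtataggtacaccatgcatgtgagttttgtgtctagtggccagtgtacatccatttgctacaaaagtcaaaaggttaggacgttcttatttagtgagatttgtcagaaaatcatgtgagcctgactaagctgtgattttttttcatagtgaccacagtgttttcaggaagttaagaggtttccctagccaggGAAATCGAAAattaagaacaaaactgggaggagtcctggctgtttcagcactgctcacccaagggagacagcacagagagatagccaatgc
Oas1a: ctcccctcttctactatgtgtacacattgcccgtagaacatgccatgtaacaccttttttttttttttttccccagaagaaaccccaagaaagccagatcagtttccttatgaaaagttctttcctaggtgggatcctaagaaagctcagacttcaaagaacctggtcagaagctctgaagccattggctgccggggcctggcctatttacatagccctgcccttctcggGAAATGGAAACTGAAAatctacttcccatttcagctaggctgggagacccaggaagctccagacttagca
Stat2: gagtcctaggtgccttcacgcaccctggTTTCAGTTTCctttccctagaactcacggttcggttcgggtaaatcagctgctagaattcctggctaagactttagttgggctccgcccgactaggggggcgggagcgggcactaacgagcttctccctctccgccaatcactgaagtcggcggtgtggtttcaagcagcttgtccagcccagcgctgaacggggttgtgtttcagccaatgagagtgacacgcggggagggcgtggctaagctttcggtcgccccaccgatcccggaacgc
Ctsd: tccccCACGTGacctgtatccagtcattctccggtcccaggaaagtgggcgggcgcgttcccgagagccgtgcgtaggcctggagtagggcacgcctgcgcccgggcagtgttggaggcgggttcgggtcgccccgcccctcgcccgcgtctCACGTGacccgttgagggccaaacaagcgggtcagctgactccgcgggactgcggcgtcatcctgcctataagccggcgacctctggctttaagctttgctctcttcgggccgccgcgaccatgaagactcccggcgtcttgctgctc
Gpnmb: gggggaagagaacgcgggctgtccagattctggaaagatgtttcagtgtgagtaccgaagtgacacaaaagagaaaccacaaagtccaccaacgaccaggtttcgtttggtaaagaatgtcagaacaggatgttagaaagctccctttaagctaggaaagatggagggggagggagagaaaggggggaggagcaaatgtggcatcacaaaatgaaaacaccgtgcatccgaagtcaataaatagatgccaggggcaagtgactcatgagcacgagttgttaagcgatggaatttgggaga
The ISRE core was found in 18 of 27 interferon response genes with a promoter in the table (66.7%), in 190 of 5558 genes compared (3.42%) and in 943 of all 27025 promoters (3.49%). Among the genes 2-fold or more higher in P301S/E4/TREM2-, 183 had a promoter and 14 held the core (7.65%). The E-box, the core of the element that the lysosomal regulator TFEB binds, was in 11 of 36 lysosomal promoters (30.6%), 14 of those 183 (7.65%) and 624 of the 5558 (11.2%). A match is not a binding site, and these shares are descriptions without a test.

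Genes of antigen presentation divided by class. All 15 MHC class I genes were above 0 in the TREM2- pair, with a median of 0.45, against 9 of 15 and 0.04 in the TREM2+ pair. The shares of all genes above 0 were 59.0% in the TREM2- pair and 45.6% in the TREM2+ pair. None passed the edgeR test, with 3 above 0 at an unadjusted p of 0.05, and DESeq2 called 0. That unadjusted p was reached by 1666 of all 10830 genes tested by edgeR, in either direction. Nlrc5, the transactivator of MHC class I, had 58.6 CPM in P301S/E4/TREM2-, with 15.1 CPM in P301S/EKO/TREM2- (log2 1.95), and H2-K1 had 735 CPM with APOE4 and 379 CPM without Apoe (log2 0.96). In the TREM2+ pair these were 54.6 CPM with APOE4 and 40.8 CPM without Apoe for Nlrc5 and 672 CPM with APOE4 and 607 CPM without Apoe for H2-K1. MHC class II genes had medians of 1.77 in the TREM2- pair and 1.85 in the TREM2+ pair, with 5 of 6 genes above 0 in each. In the fit 5 of 9 rose, where 1.39% of all genes rose, and DESeq2 called 2 higher. H2-Aa, a class II chain, had 90.6 CPM in P301S/E4/TREM2-, with 21.5 CPM in P301S/EKO/TREM2- (log2 2.08, 1.56 to 2.63), H2-Ab1 110 CPM with APOE4 and 26.5 CPM without Apoe (log2 2.05), H2-Eb1 96.5 CPM with APOE4 and 9.47 CPM without Apoe (log2 3.35), and Cd74, the invariant chain, 237 CPM with APOE4 and 83.9 CPM without Apoe (log2 1.49). These 4 and Ciita, the class II transactivator, rose. The E4/TREM2- library without tau had 90.6 CPM of H2-Aa, 87.7 CPM of H2-Ab1 and 77.3 CPM of H2-Eb1, so P301S/EKO/TREM2- was the low one of the TREM2- libraries. The TREM2- values depended on depth. At 1000 UMIs per nucleus, which left 2767 nuclei of P301S/E4/TREM2- and 316 of P301S/EKO/TREM2-, the log2 ratios were 1.02 for H2-Aa, 0.25 for H2-Ab1 and 0.72 for H2-Eb1 and the list median was 0.28. Without thinning the ratio was 2.36 for H2-Eb1. The UMIs came from few nuclei, with an H2-Aa UMI in 3.39% of nuclei of P301S/E4/TREM2- and 0.631% of nuclei of P301S/EKO/TREM2-.

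In the remaining lists few members passed the test. The complement list had a median of 0.16 over 8 genes, and C1qa, a chain of the initiating complement complex, was at 3720 CPM with APOE4 and 3180 CPM without Apoe. Of 21 NF-kB and cytokine genes tested in the fit, only Cd83, a surface glycoprotein of activated cells, passed, and it rose. Cd83 had 98.9 CPM with APOE4 and 58.1 CPM without Apoe (log2 0.77), and the list median was 0.36 over 17 compared. Tnfaip2 had 242 CPM with APOE4 and 70.1 CPM without Apoe (log2 1.79) but 109 CPM with APOE4 and 114 CPM without Apoe in the TREM2+ pair, and did not pass (edgeR adjusted p = 0.154). Of 17 tested genes of immunoreceptor (ITAM) signalling, the pathway TREM2 uses, only the inhibitory Fc receptor Fcgr2b passed, and it rose. Fcgr2b had 222 CPM with APOE4 and 141 CPM without Apoe (log2 0.65), and the list median was 0.29 over 16 compared. Matrix and adhesion genes had a median of 0.12 over 13 compared, which was 0.63 without thinning and 0.53 with a minimum of 50 UMIs. In the fit 6 of 17 rose (4 called by DESeq2) and Itgb1 fell, where 1.39% of all genes rose and 0.914% fell. Among the 6 were the integrin Itga4, also on the monocyte marker list (38.8 CPM with APOE4 and 12 CPM without Apoe, log2 1.69) and the motor protein Myo1e (125 CPM with APOE4 and 50.5 CPM without Apoe, log2 1.30). Hif1a, the hypoxia factor, was the only glycolysis list member and the only lineage transcription factor list member to rise (285 CPM with APOE4 and 145 CPM without Apoe, log2 0.98), beside list medians of 0.10 and -0.01. Chemokine genes had a median of 0.02 and TGF-beta genes -0.17, and no gene of either passed in edgeR or DESeq2. At an unadjusted p of 0.05 in edgeR, 3 of 17 chemokine genes were above and 3 below 0, and 5 of 14 TGF-beta genes were below 0. Of all 10830 genes tested, 1666 reached that p in either direction.

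Proliferation genes were also higher in P301S/E4/TREM2-. All 8 compared were above 0 with a median of 0.93, and 4 were 2-fold or more higher. The median moved with the thinning, to 0.52 with a second seed and 0.42 at 300 UMIs per nucleus, and was 0.41 with a minimum of 200 UMIs. Top2a, a topoisomerase of dividing cells, had 38.8 CPM in P301S/E4/TREM2-, with 9.47 CPM in P301S/EKO/TREM2- (log2 2.03), and Hells, a chromatin remodeller of S phase, 31.7 CPM with APOE4 and 10.7 CPM without Apoe (log2 1.56). In the TREM2+ pair Top2a had 7.60 CPM with APOE4 and 5.67 CPM without Apoe and Hells 7.60 CPM with APOE4 and 6.80 CPM without Apoe, so P301S/E4/TREM2- was the highest of the 6 libraries. None of 12 genes tested by edgeR passed, with 4 above 0 at an unadjusted p of 0.05, and DESeq2 called 0. Of all 10830 genes, 1666 reached that unadjusted p in edgeR in either direction. The Top2a UMIs sat in 94 nuclei (1.39%) of P301S/E4/TREM2-.

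Shares of nuclei with transcripts of a list, at 500 UMIs each, gave the same groups. At least 3 stage 1 DAM UMIs were held by 72.9% (71.8 to 73.9) of nuclei of P301S/E4/TREM2- and 38.6% (36.9 to 40.3) of P301S/EKO/TREM2-, and at least 3 stage 2 UMIs by 58.9% (57.7 to 60) with APOE4 and 34.6% (33.0 to 36.3) without Apoe. Among neuron nuclei, 1 of 16 in P301S/E4/TREM2- and 1 of 17 in P301S/EKO/TREM2- reached the stage 2 mark. The stage 1 mark was reached by 1 of 16 with APOE4 and 3 of 17 without Apoe, but genes of that list such as Fth1 and Ctsd are also expressed by neurons. For the interferon list the shares were 22.1% in P301S/E4/TREM2- and 9.56% in P301S/EKO/TREM2-, for lipid export and storage 35.7% with APOE4 and 19.3% without Apoe, and for proliferation 1.98% with APOE4 and 0.442% without Apoe. In the TREM2+ pair the interferon shares were 12.9% with APOE4 and 15.4% without Apoe. Before thinning, the DAM stage 1 share was 93.8% in P301S/E4/TREM2- and 50.2% in P301S/EKO/TREM2-, and the stage 2 share 87.4% with APOE4 and 45.8% without Apoe, where depth differed. TGF-beta and chemokine lists ran the other way at 500 UMIs, with 26.9% with APOE4 and 34.7% without Apoe for TGF-beta, and 15.4% with APOE4 and 19.2% without Apoe for chemokines. Before thinning, at unequal depth, that direction was reversed. The shares were then 63.4% with APOE4 and 44.9% without Apoe for TGF-beta, and 42.1% with APOE4 and 26.3% without Apoe for chemokines.

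**Figure D4:**
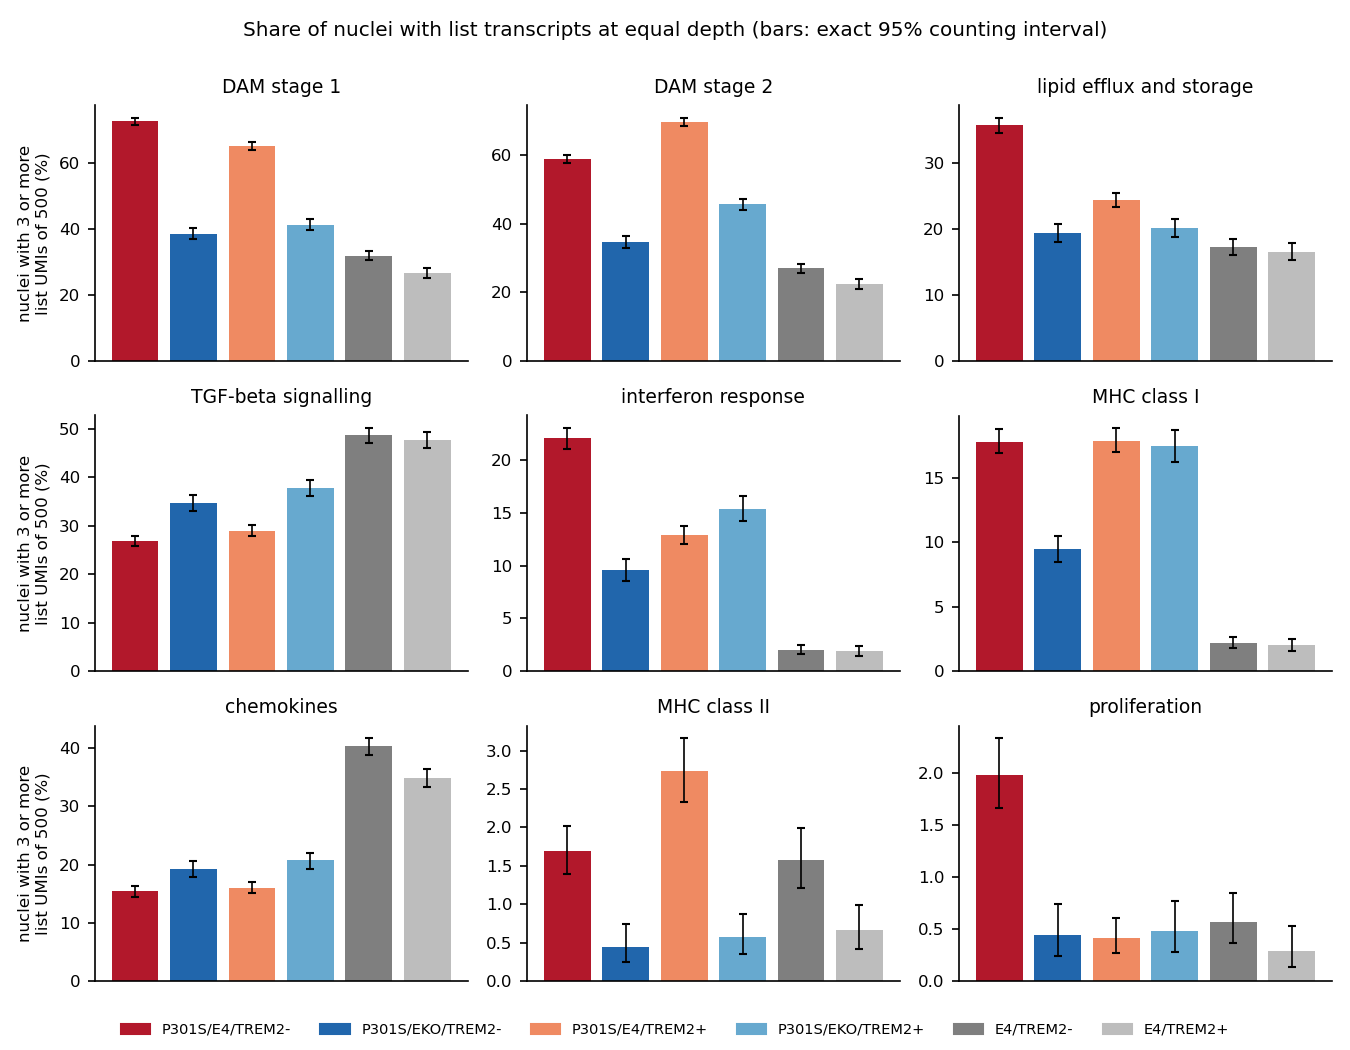
Percent of nuclei with 3 or more UMIs of a list among 500, per library, with exact 95% counting intervals. P301S/E4/TREM2- exceeds P301S/EKO/TREM2- for DAM, lipid, interferon, both MHC and proliferation lists, and lies below it for TGF-beta and chemokines.

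Genes lower in P301S/E4/TREM2- were led by Lig4, DNA ligase IV of end joining (chromosome 8, 9969049 to 9977686, minus strand). It had 7.40 CPM in P301S/E4/TREM2-, with 59.3 CPM in P301S/EKO/TREM2-, a log2 ratio of -3.0 (-3.70 to -2.35). In the TREM2+ pair it had 11.6 CPM with APOE4 and 92.4 CPM without Apoe and again a ratio of -3.0, and it fell by 2.99 ± 0.24 on the log2 scale (edgeR adjusted p = 2.76e-05). The E4 libraries without tau had 9.96 CPM (TREM2-) and 9.80 CPM (TREM2+), so Lig4 was high in the libraries without Apoe and low in all 4 with APOE4. The unnamed transcript Gm10848 was different. It had 21.6 CPM in P301S/E4/TREM2-, with 74.5 CPM in P301S/EKO/TREM2-, 24.5 CPM with APOE4 and 94.1 CPM without Apoe in the TREM2+ pair, and 88.7 CPM in E4/TREM2-, and it fell by 1.88 ± 0.20 on the log2 scale (edgeR adjusted p = 0.000304). Gm43221 (432 CPM with APOE4 and 875 CPM without Apoe, log2 -1.02), Hdgfl3 (27.2 CPM with APOE4 and 66.3 CPM without Apoe), Camk2a, Masp2 and Cmya5 were the other genes lower in both pairs, and all fell.

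Of the 12 lowest genes of the TREM2- pair, chosen on libraries of the fit, 6 fell, and several are genes of neurons or astrocytes. Atp1b1, a subunit of the sodium pump, had 27.8 CPM in P301S/E4/TREM2-, with 97.2 CPM in P301S/EKO/TREM2- (log2 -1.80), the synaptic kinase Camk2a 17.8 CPM with APOE4 and 58.1 CPM without Apoe (log2 -1.71), the glutamate receptor subunit Grin2b 12.1 CPM with APOE4 and 39.8 CPM without Apoe (log2 -1.71), and Aldoc, an aldolase of astrocytes, 17.5 CPM with APOE4 and 75.1 CPM without Apoe (log2 -2.10). Camk2a, Grin2b and Atp1b1 fell and Aldoc did not pass (edgeR adjusted p = 0.186). Neuronal markers summed to 157 CPM in P301S/E4/TREM2-, with 353 CPM in P301S/EKO/TREM2-, and after leaving out nuclei with 3 or more UMIs of neuronal or glial markers the ratios were -1.78 for Camk2a, -2.08 for Grin2b and -1.66 for Aldoc. Mapt, the mouse tau gene, had 14.8 CPM with APOE4 and 39.8 CPM without Apoe (log2 -1.43). Prnp had 25.5 CPM with APOE4 and 69.4 CPM without Apoe (log2 -1.45), and neither gene passed. Without tau, Mapt had 11.4 CPM in E4/TREM2- and 12.7 CPM in E4/TREM2+, where neuronal markers summed to 768 and 436 CPM. Whether transcripts of the tau transgene were counted as Mapt was not tested.

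Cd38, Hal and Mndal were among the 12 highest genes of the TREM2- pair and rested on few UMIs in few nuclei. Cd38, an ectoenzyme that consumes NAD, had 30.2 CPM in P301S/E4/TREM2-, with 1.26 CPM in P301S/EKO/TREM2- (log2 4.58, 2.69 to 7.65), while the TREM2+ pair had 5.29 CPM with APOE4 and 2.27 CPM without Apoe. Hal, histidine ammonia lyase, had 29.9 CPM with APOE4 and 2.52 CPM without Apoe (log2 3.57), and Mndal, a PYHIN family gene, 36.4 CPM with APOE4 and 3.79 CPM without Apoe (log2 3.27). They were found in 1.38%, 1.21% and 1.49% of nuclei of P301S/E4/TREM2-, and none of the 3 was called in the fit, where Cd38 and Hal were not tested for want of counts. The monocyte marker sum was 129 CPM there and 34.7 CPM in P301S/EKO/TREM2-. Without nuclei with 2 or more monocyte marker UMIs the log2 ratios were 3.97 for Cd38, 3.88 for Hal and 2.60 for Mndal, and with the macrophage limit lifted those of Cd38 and Mndal were 1.68 and 1.66.

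**Figure D5:**
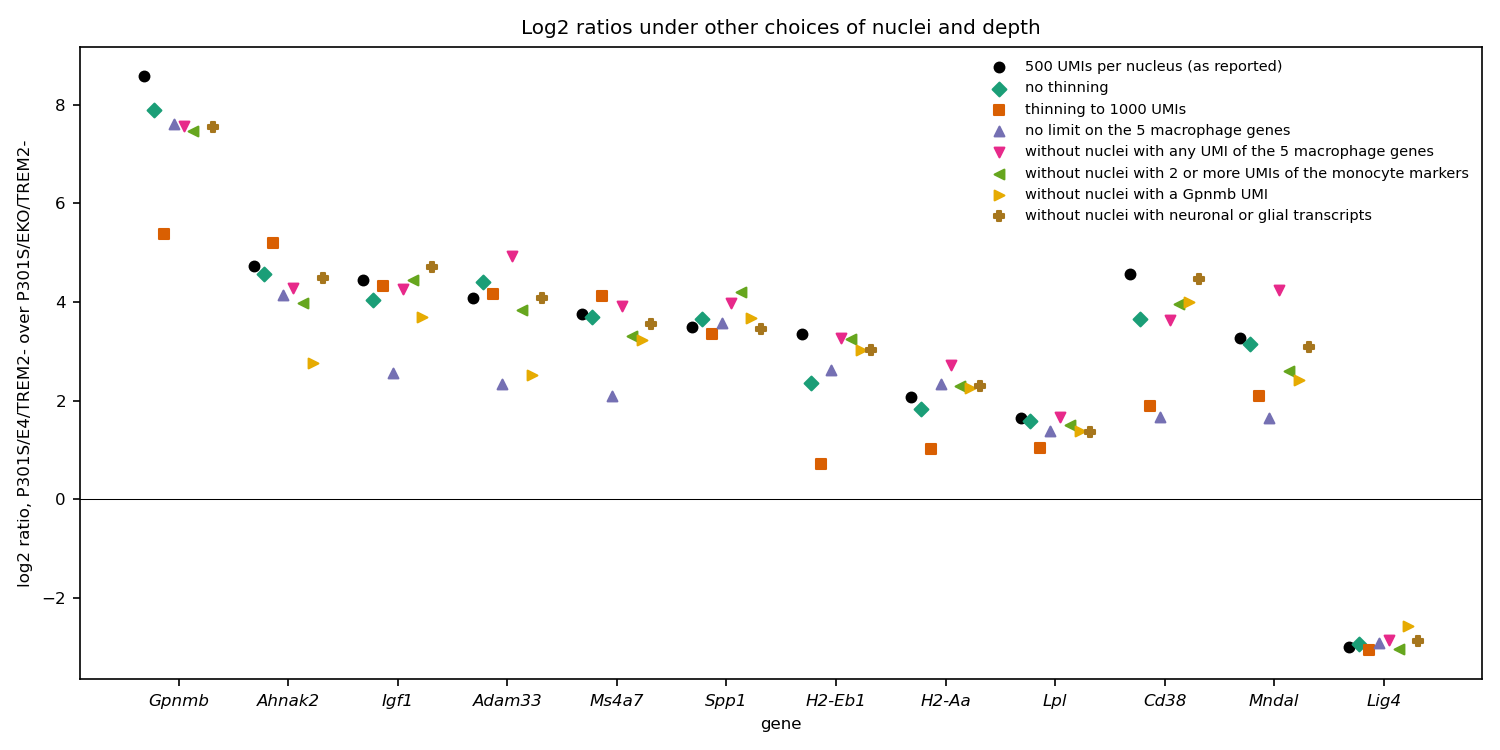
Log2 ratios of P301S/E4/TREM2- over P301S/EKO/TREM2- for 12 genes as reported (black) and under other choices of nuclei and depth. Every gene keeps its sign under all settings drawn, while Igf1, Adam33 and Ms4a7 come down to between 2.09 and 2.57 when the macrophage limit is lifted and H2-Eb1 to 0.72 at 1000 UMIs per nucleus.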

How the data were processed

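Single-nucleus RNA libraries (10x Genomics v3.1) were made from PU.1-sorted hippocampal nuclei, per the labels. The authors mapped reads to mm10, per the labels' protocols. The deposited UMI counts are not normalized and were written by Cell Ranger 3.0.1, per the file headers. They cover 31053 features, and 30934 of the IDs matched GENCODE vM21. The authors' deposited marker table was used only to take the TERM genes, ranked by its score. Nuclei were filtered as stated and thinned without replacement to 500 UMIs (seed 1), and UMIs were summed per library (numpy 2.4.6, scipy 1.17.1). Doublets were gated out in the sort, per the labels' protocols, and no doublet caller was run here, so any that passed the gate remained, and nuclei above 3 times the median UMI count were left out as an alternative. Genes needed 100 UMIs over a pair. A library at 0 would have been set to 3 UMIs for a bound, and none of the genes compared in the TREM2- pair needed it. The additive fit (edgeR 4.0.16, R 4.3.3, TMM, filterByExpr by TREM2 genotype, terms for background and TREM2) had a common dispersion of 0.0138 and 2 residual degrees of freedom. On simulated counts for 10853 genes it recovered 63.3% of 98 genes changed by 1 and 97.9% of 97 changed by 2 on the log2 scale, with 4 false calls. The simulation gave all genes the common dispersion and, apart from the changed genes, the same mean level in all 6 libraries. Its recovery and false calls therefore do not measure the error rates in these data. SE is the fold change over the square root of F. Named genes were the 12 highest and lowest of the TREM2- pair, the 12 highest and lowest in both pairs, the 10 with the largest difference between pairs, up to 7 per list, and 10 genes of prior interest. Genes beyond these are list members that were called, members of the set higher in both pairs, or genes near Apoe, chosen after their values were seen. The members and lists were chosen with earlier results of these data known. Some genes are not reported here.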

Additional observations from a re-analysis of the deposited data

Results flagged for a closer look

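The log2 ratio of P301S/E4 over P301S/EKO had opposite signs in the TREM2- and TREM2+ pairs for 3 genes past 2-fold in both. The medians of 2 lists that differed by 0.5 or more between the pairs did so too. Other genes and lists also had opposite signs, below those limits. With 1 library per genotype none of these differences was tested, and no cause was tested. Gnb4, a G protein subunit, had 51.5 CPM in P301S/E4/TREM2-, with 2.52 CPM in P301S/EKO/TREM2- (log2 4.35), but 19.5 CPM with APOE4 and 55.0 CPM without Apoe in the TREM2+ pair (log2 -1.49), a difference of 5.85. Without tau it had 1.90 CPM in E4/TREM2- and 42.1 CPM in E4/TREM2+. Zfp992, a zinc finger gene, had 80.8 CPM with APOE4 and 34.7 CPM without Apoe (log2 1.22) against 45.3 CPM with APOE4 and 96.3 CPM without Apoe in the TREM2+ pair (log2 -1.09), a difference of 2.31. Without tau Zfp992 had 41.7 CPM in E4/TREM2- and 50.2 CPM in E4/TREM2+. Hbegf, a growth factor of the EGF family, had 11.5 CPM in P301S/E4/TREM2-, with 71.9 CPM in P301S/EKO/TREM2- (log2 -2.64), against 60.5 CPM with APOE4 and 21.0 CPM without Apoe in the TREM2+ pair (log2 1.53), a difference of -4.17. Without tau Hbegf had 6.17 CPM in E4/TREM2- and 62.9 CPM in E4/TREM2+, so it also differed widely between pools that both carry APOE4. The interferon response median was 0.64 in the TREM2- pair and -0.26 in the TREM2+ pair (difference 0.91), and the immediate early median -0.36 in the TREM2- pair and 0.21 in the TREM2+ pair (difference -0.58).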

How the results depend on the processing

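No paired analysis was possible because each genotype has 1 library, so a replicate number marks no pair. The fit itself holds TREM2 genotype as a term. Counts are given as higher then lower. The counts of genes past 2-fold in the TREM2- pair (227 and 79) became 376 and 236 without thinning, 385 and 169 with a minimum of 50 UMIs, 119 and 29 with 200, and the higher count 381 at 1000 UMIs per nucleus. Those past 2-fold in both pairs (53 and 7) became 80 and 31 without thinning, 35 and 3 at 300 UMIs per nucleus, 91 and 22 with a minimum of 50 UMIs, 35 and 1 with 200, and the higher count 27 without nuclei with a Gpnmb UMI. That setting, and those without monocyte-marker nuclei or nuclei with any macrophage gene UMI, were chosen after seeing the data. Among named genes past 2-fold in the TREM2- pair no ratio changed sign, while that of Itgax, which was under 2-fold, was -0.23 at 300 UMIs. Of the list medians of the TREM2- pair, proliferation ran from 0.41 to 1.16 over the alternatives, MHC class II from 0.28 to 2.05, matrix and adhesion from 0.04 to 0.63, NF-kB and cytokines from 0.16 to 0.43, MHC class I from 0.29 to 0.60, complement from 0.01 to 0.26, lipoprotein receptors from 0.19 to 0.35 and immediate early from -0.72 to -0.17. Medians crossed 0 for chemokines (-0.25 to 0.18), cholesterol synthesis (-0.37 to 0.19), TGF-beta (-0.25 to 0.14) and lineage factors (-0.09 to 0.22). The fit (151 rose, 99 fell) gave 58 and 40 with DESeq2 1.42.0, 442 and 252 without a filter, 233 and 236 without thinning and 100 and 37 on the 4 tau libraries. Leaving out 1 library gave 56 to 511 and 32 to 588. The counts were 511 and 588 without P301S/E4/TREM2+, 56 and 32 without P301S/EKO/TREM2-, 91 and 46 without P301S/EKO/TREM2+, 94 and 39 without E4/TREM2-, 93 and 35 without E4/TREM2+, and 218 and 145 without P301S/E4/TREM2-. Each of these fits keeps 1 residual degree of freedom. Depth limits P301S/EKO/TREM2- most, with 316 nuclei at 1000 UMIs.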

Other observations

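Axl lies on chromosome 7 within 10 Mb of Apoe, so gene position was checked. Of 92 genes compared within 10 Mb of Apoe, Apoe itself left out, 4 were 2-fold or more higher in P301S/E4/TREM2- (4.35%: Lig1, Dhx34, Axl and Coq8b) and 0 were lower, against 3.19% higher and 1.14% lower of 6954 genes elsewhere.

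The chemokine receptor gene Ccr6 had 54.8 CPM in P301S/E4/TREM2-, with 77.0 CPM in P301S/EKO/TREM2-, but 2 UMIs with APOE4 and 3 UMIs without Apoe in the TREM2+ pair, 2.85 CPM in E4/TREM2- and 46.7 CPM in E4/TREM2+. Cxcl10, an interferon-induced chemokine, had 82.6 CPM in P301S/E4/TREM2-, with 131 CPM in P301S/EKO/TREM2-. Its UMIs lay in few nuclei, with 279 UMIs in 102 nuclei (1.51%) of P301S/E4/TREM2- and 207 UMIs in 38 nuclei (1.20%) of P301S/EKO/TREM2-, and the 95% intervals of these shares (1.23 to 1.83 with APOE4, 0.85 to 1.64 without Apoe) overlap.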
